A study of Mus musculus with 12 samples.

Results

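The glutathione and thioredoxin redox genes considered here were Gsr, Gclc, Gclm, Gpx1, Gpx4, Txnrd1, Nqo1, Hmox1, Srxn1 and Nfe2l2, 10 of the 38830 gene names in the count tables of the 2 hair cycle stages. They were taken by name from both tables as members of 1 antioxidant system, and all 10 were found there and passed the filter on low counts in every comparison. The set was chosen by readout as well as by name: it was proposed with the KO and WT CPM values of anagen known, in which Gsr stood out. The anagen KO and WT values of all 10 are therefore given as a description without a test. So are the differences between stages in their KO effects, which contain those values, and early telogen against anagen for Gsr in KO cells. Early telogen against anagen was otherwise tested, for Gsr in WT cells and for the other genes in both genotypes. The anagen values of all 10 were among those known, so these tests are not independent of the choice.

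Sequenced RNA came from stem cells of the hair follicles in mouse back skin, sorted as H2BGFP+, Sca-1-, CD34+ and CD49f+. KO mice carried K14-H2BGFP, K14Cre and Foxc1 fl/fl, and WT mice carried K14-H2BGFP and Foxc1 fl/fl without Cre. The keratin 14 promoter drives both transgenes in basal keratinocytes and follicle stem cells, so Foxc1, a forkhead transcription factor gene, was deleted in these lineages generally and not in the sorted cells alone, while the reporter and the floxed alleles were shared by all mice. There were 4 early telogen KO libraries (replicates 1, 2, 3 and 5) and 3 early telogen WT libraries (replicates 1, 3 and 4), all with an age label of 47 days, although KO replicate 5 was titled as day 43. Anagen was represented by 2 KO libraries (days 29 and 31) and 3 WT libraries (days 29, 30 and 31, the last with an age label of 43 days). Early telogen is the start of the resting phase of the follicle and anagen its growth phase. The labels do not say that replicates came from separate animals, so p-values measure only the spread between these libraries.

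Glutathione is a small thiol that cells keep in its reduced form to detoxify peroxides and reactive compounds, and the thioredoxin system reduces protein disulfides in parallel. Both draw electrons from NADPH. The transcription factor NRF2, encoded by Nfe2l2, is held low by KEAP1 in unstressed cells and turns on many genes of both systems through antioxidant response elements. In skin, NRF2 is best known for protecting keratinocytes against ultraviolet light and reactive chemicals.

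The letters TGANNNNGC, a loose form of the core of the antioxidant response element, were searched for on both strands. The search covered the RefSeq promoters of build GRCm38.p6, each from 250 bases before to 50 bases after a start. RefSeq promoters were at hand for 7 of the 10 genes (not Gsr, Gclc or Hmox1), 12 in all, and 4 of the 7 genes had a match: Gclm, Txnrd1, Srxn1 and Nfe2l2. Of all 32851 mouse promoters of this length, 41.3% held these letters, so a match describes the sequence and shows no binding. The matches of Gclm, which fell between stages in both genotypes below, and of Txnrd1 and Srxn1, which did not pass in any test, are shown so that the letters can be compared. Each line gives 29 bases in the direction of the gene, with the core in capitals; a core on the opposite strand is read from the complement. Srxn1 had 4 matches, of which those at -57 and 28 from the start are not shown, nor is the match of Nfe2l2.
Gclm, chr3:122245413-122245441, opposite strand: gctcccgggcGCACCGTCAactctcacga
Txnrd1, chr10:82859104-82859132, opposite strand: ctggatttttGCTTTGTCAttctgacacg
Txnrd1, chr10:82860247-82860275, opposite strand: cgttttgcccGCGGTTTCAgattccagga
Srxn1, chr2:152105356-152105384, opposite strand: tctactgagaGCCGACTCAtcctctctgg
Srxn1, chr2:152105469-152105497, gene strand: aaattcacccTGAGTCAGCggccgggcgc
The Gclm core begins 134 bases before the start of the gene, and that of Srxn1 on its own strand 45 bases before.

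Library totals over genes were 2662083 to 11821916 counts in early telogen and 29025553 to 54482469 counts in anagen. Each stage has its own table and its own depth, so differences between stages and differences between tables cannot be told apart. Foxc1 averaged 1.86 ± 1.03 CPM (a gene's counts scaled to the total of its library) in early telogen KO cells (n = 4) and 54.7 ± 9.48 CPM in early telogen WT cells (n = 3), and 0.241 ± 0.0494 CPM in anagen KO cells (n = 2) and 65.9 ± 43.8 CPM in anagen WT cells (n = 3; ± is SD throughout for CPM). Both anagen KO libraries were labelled female, against 1 of 3 anagen WT libraries. The summed CPM of 10 hair follicle stem cell markers, such as Krt15, Sox9 and Cd34 (itself used in the sort), was 24840 to 36130 in early telogen KO, 28900 to 35830 in early telogen WT, 21840 to 25350 in anagen KO and 23030 to 30690 in anagen WT, and none of the 10 markers was at 0. Krt5 and Krt14 made up most of each sum, and some markers differed between genotypes. Krt15 was 1254 and 2192 CPM in anagen KO and 4641 to 9289 CPM in anagen WT, and Nfatc1 60.0 and 99.3 CPM in anagen KO and 159.9 to 234 CPM in anagen WT. Cd34 was 349 to 417 CPM in early telogen KO and 647 to 845 CPM in early telogen WT, and 230.3 and 277 CPM in anagen KO and 352 to 757 CPM in anagen WT. The part of these differences in the redox values was not tested. In bulk RNA, fewer cells of a type and less RNA per cell cannot be told apart.

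Levels were compared between the redox genes as CPM per kilobase of annotated exon. Gpx1, the selenoprotein that reduces hydrogen peroxide with glutathione, had the highest mean in early telogen KO (200.5), early telogen WT (168) and anagen KO (180 CPM per kilobase). Every early telogen library had more Gpx1 by this measure than any library of its group had of the gene next in order, Hmox1. Hmox1, the inducible haem oxygenase, led in anagen WT with 348 CPM per kilobase, and every anagen WT library lay above every anagen WT value of Gpx1 (mean 232). At the other end, Gsr was last in early telogen KO (1.81), early telogen WT (0.935) and anagen WT (4.92 CPM per kilobase). In anagen KO it stood 9th with 40.4 CPM per kilobase, within the spread of Gclm (43.9) just above it and clear of Nqo1 (13.7) below. The middle places held Gclc, Gpx4, Nfe2l2, Txnrd1 and Srxn1, and most neighbours there did not differ beyond their spread: within the 4 groups, their mean levels ran from 26.3 to 104 CPM per kilobase.

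**Figure D1:**
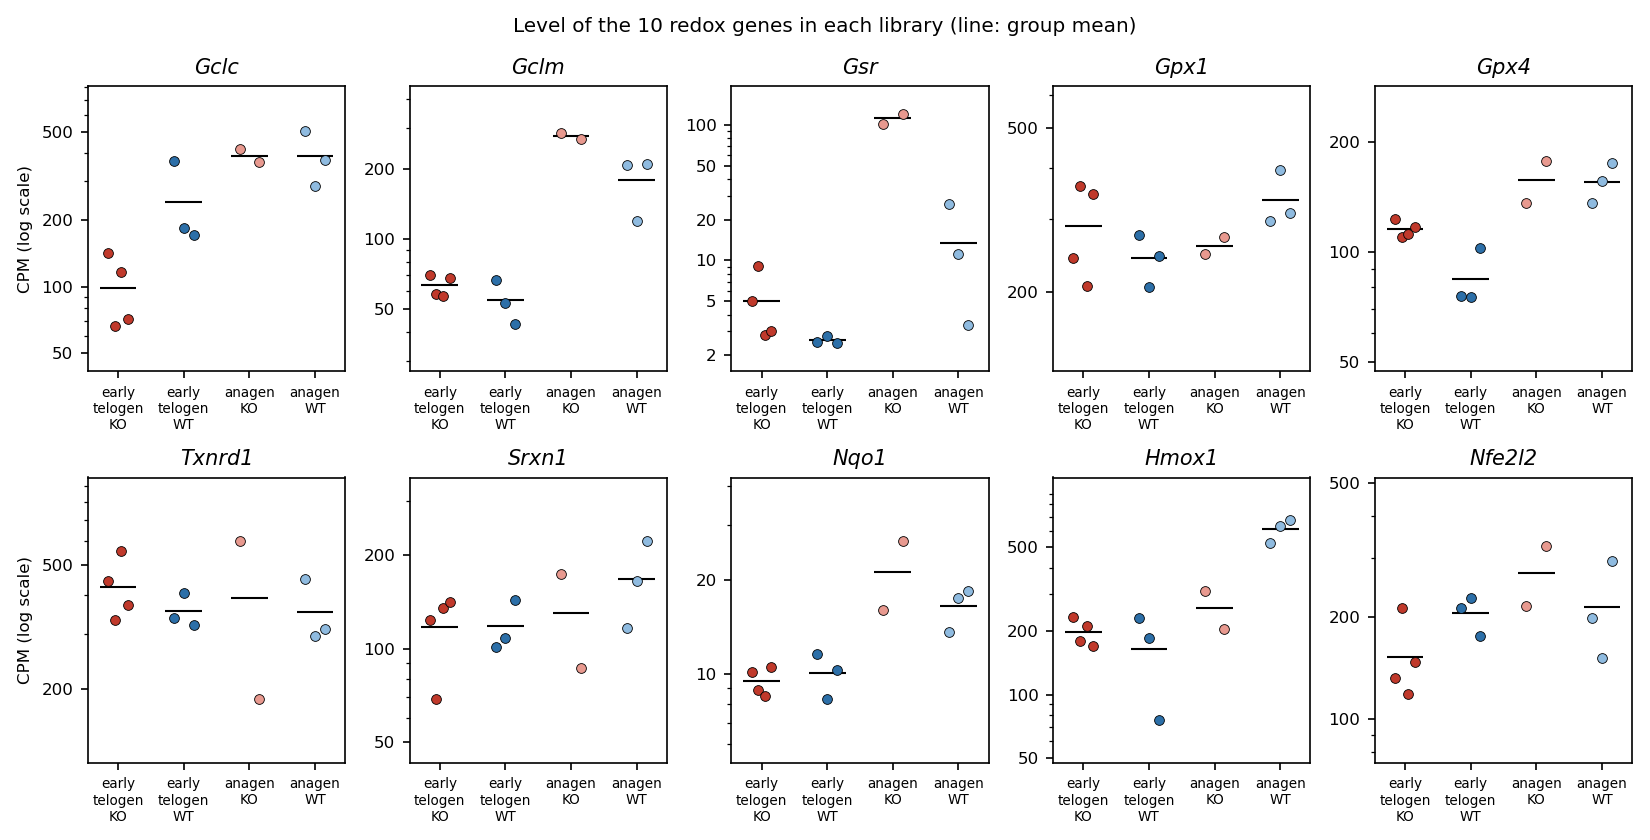
Level of each of the 10 redox genes in CPM (log axis) in each of the 12 libraries, by group, with replicates in ascending number from left to right; the horizontal line is the group mean. Gsr in the 2 anagen KO libraries (102 and 120.4 CPM) lies far above its other 10 libraries, Gclc is lowest in the 4 early telogen KO libraries, and Hmox1 is highest in the 3 anagen WT libraries.

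Gsr encodes glutathione reductase, which uses NADPH to return oxidised glutathione to its reduced form (chromosome 8, 33652523 to 33698163, plus strand, build mm10). It measured 102 and 120.4 CPM in the anagen KO libraries, against 26.1, 11.3 and 3.32 CPM in anagen WT replicates 1, 2 and 3. The groups were far apart, and within WT the highest library was 7.84 times the lowest. The log2 fold change was 2.94 ± 0.72 (SE throughout for log2 fold changes). Leaving out 1 library at a time gave log2 fold changes of 2.48 to 3.82, with the highest without WT replicate 1. Gsr in anagen also ran with the sex label: the female WT library was the one at 26.1 CPM, and with the sex label in the model the log2 fold change was 2.02. Within WT, Gsr also fell in the order of the age labels, which were 29, 30 and 43 days for replicates 1, 2 and 3. The part of sex or age in this difference was not tested.

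In early telogen Gsr was low in both genotypes. KO replicates 1, 2, 3 and 5 had 4.99, 9.15, 2.83 and 3.01 CPM (59, 103, 28 and 8 counts), against 2.50, 2.78 and 2.45 CPM in WT replicates 1, 3 and 4 (28, 30 and 15 counts). Every KO library lay above every WT library, but KO replicates 3 and 5 only just. The log2 fold change was 0.75 ± 0.46 and did not pass (edgeR adjusted p = 0.568). In KO cells the log2 fold change of early telogen against anagen was -4.46 ± 0.34, given without a test. The anagen WT values of Gsr were known when the set was chosen, so its stage test in WT cells is not independent of that choice. Within WT cells Gsr was lower in early telogen than in anagen (log2 fold change -2.30 ± 0.70; edgeR adjusted p = 0.0448). That call held in only 1 of 6 fits that each left out 1 library (edgeR adjusted p 0.00319 to 0.139 over the 6). It was the fit without anagen WT replicate 3, the library with an age label of 43 days. The call was also lost without the filter on low counts (edgeR adjusted p = 0.130).

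Of the genes beside Gsr on chromosome 8, which were looked at after the Gsr values were seen, Ppp2cb, encoding a catalytic subunit of protein phosphatase 2A, ends 33082 bases before Gsr starts. It measured 268 and 288 CPM in anagen KO, against 93.8 to 188 CPM in anagen WT, a log2 fold change of 0.88. Gtf2e2, a subunit of general transcription factor TFIIE on the other side, had 28.5 and 41.4 CPM in anagen KO and 21.3 to 29.5 CPM in anagen WT, a log2 fold change of 0.39. The nearest gene upstream in the tables, Ubxn8, had 9.20 and 14.9 CPM in anagen KO and 4.03 to 11.03 CPM in anagen WT (log2 fold change 0.62), and Tex15 had 0.643 and 0.758 CPM in KO and 0.185 to 0.422 CPM in WT (1.21). Rbpms overlapped, with 2.03 and 3.48 CPM in anagen KO and 1.10 to 4.95 CPM in anagen WT (log2 fold change 0.06). Smim18 was nearly undetected, with 0 CPM in anagen KO and at most 0.0925 CPM in anagen WT. All these log2 fold changes were smaller than that of Gsr. Over the 12 libraries, the 5 genes with the pattern most like that of Gsr were Slc25a45, Acta2, Parm1, Heg1 and Serpine2, out of 9374 genes with a mean of at least 5 CPM. Their root mean square difference from Gsr was 0.88 to 0.99 log2 units after centring, beside an SD of 2.02 for Gsr itself. Since these genes were picked by likeness to Gsr, high values in anagen KO follow from the choice. Serpine2, a secreted protease inhibitor, had 34.0 and 34.5 CPM in anagen KO, 9.33 to 10.4 CPM in anagen WT, 2.53 to 8.46 CPM in early telogen KO and 1.76 to 5.06 CPM in early telogen WT. Acta2 overlapped between the anagen genotypes, with 64.7 and 200.6 CPM in KO and 12.65 to 87.5 CPM in WT.

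Gclc encodes the catalytic subunit of glutamate-cysteine ligase, which makes the first and rate-limiting bond of glutathione (chromosome 9, 77754535 to 77794485, plus strand). In early telogen KO replicates 1, 2, 3 and 5 it measured 142, 66.2, 117 and 71.4 CPM, against 369, 184 and 172 CPM in WT replicates 1, 3 and 4. All 4 KO libraries lay below all 3 WT libraries. By sex label, the female libraries had 71.4 to 142 CPM in KO and 184 and 369 CPM in WT, and the single male pair 66.2 CPM in KO and 172 CPM in WT, an order that follows from the lack of overlap. The log2 fold change was -1.41 ± 0.35, larger than for any other of the 10 genes in this comparison. It did not pass in the edgeR test (edgeR adjusted p = 0.111), nor in any fit without 1 library (0.0876 to 0.264), but it passed in DESeq2 (adjusted p = 0.00103) and with the sex label in the edgeR model (edgeR adjusted p = 0.0209). In anagen Gclc had 418 and 364 CPM in KO, against 505, 285 and 374 CPM in WT, so the groups overlapped, with a log2 fold change of -0.08 ± 0.27. The KO effect in early telogen minus that in anagen was -1.36 ± 0.50 on the log2 scale, given without a test.

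Gclm encodes the modifier subunit, which raises the activity of the same ligase (chromosome 3, 122245557 to 122270732, plus strand). Its exons share 244 bases with the pseudogene Gm6061 on the same strand and 296 bases with Gm17494 on the opposite strand, so reads there may not have been counted for Gclm. In early telogen KO it measured 70.1, 57.8, 56.6 and 68.0 CPM, against 66.9, 53.1 and 43.2 CPM in WT, and the groups overlapped (log2 fold change 0.05 ± 0.20; edgeR adjusted p = 0.95). In anagen it had 284 and 268 CPM in KO, against 208, 119.5 and 209.8 CPM in WT, with both KO libraries above all 3 WT libraries and a log2 fold change of 0.54 ± 0.28. Early telogen levels lay below every anagen level in both genotypes. The log2 fold change of early telogen against anagen was -2.13 ± 0.22 in KO (edgeR adjusted p = 0.000137) and -1.63 ± 0.24 in WT (edgeR adjusted p = 0.00223).

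Because Gclc and Gclm form 1 enzyme, their ratio was computed per library. This was done after their values were seen, so no test is given. Gclc CPM divided by Gclm CPM was 2.02, 1.15, 2.06 and 1.05 in early telogen KO, against 5.52, 3.46 and 3.97 in early telogen WT. In anagen it was 1.47 and 1.36 in KO, against 2.43, 2.39 and 1.78 in WT. KO lay below WT without overlap in both stages, at 0.353 times WT in early telogen and 0.649 times WT in anagen (ratios of geometric means). With each library left out in turn, these ratios were 0.318 to 0.404 in early telogen and 0.587 to 0.686 in anagen. Between stages the ratios overlapped in KO, while in WT the early telogen ratio was 1.94 times that of anagen, without overlap.

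**Figure D2:**
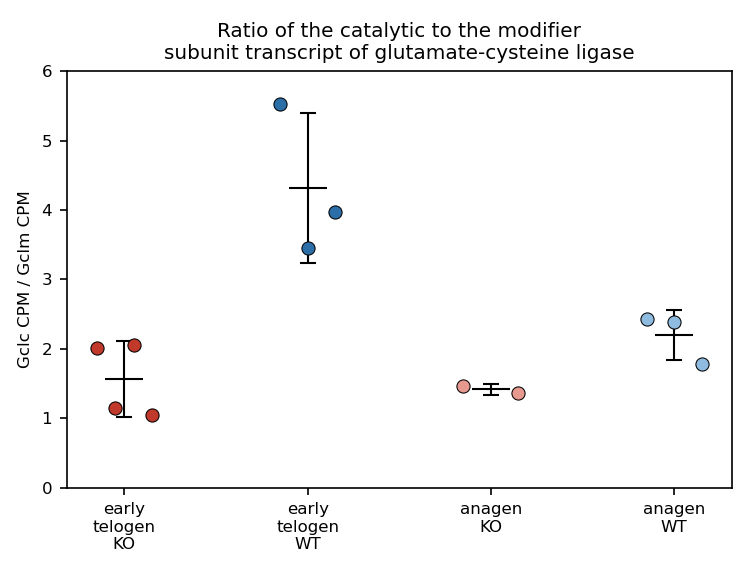
Ratio of Gclc CPM to Gclm CPM in each library (points) with the group mean and SD (bars); the axis starts at 0. The 4 early telogen KO libraries sit between 1.05 and 2.06 and the 3 early telogen WT libraries between 3.46 and 5.52, while the anagen libraries sit between 1.36 and 2.43.

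Gpx4 and Gpx1 encode glutathione peroxidases. Gpx4, whose product reduces lipid peroxides in membranes and guards cells against ferroptosis, had 123, 109.9, 112 and 117 CPM in early telogen KO, against 75.6, 75.6 and 102 CPM in early telogen WT. The groups did not overlap, but the log2 fold change of 0.29 ± 0.19 did not pass (edgeR adjusted p = 0.588). Gpx4 has a pseudogene copy in the annotation, so some of its reads may have had more than 1 position. In WT cells Gpx4 fell in early telogen against anagen, where it had 136, 157 and 175 CPM (log2 fold change -0.80 ± 0.18; edgeR adjusted p = 0.0101). Gpx1 ranged from 207 to 361 CPM in early telogen KO and from 206 to 275 CPM in early telogen WT, with overlap (log2 fold change 0.08 ± 0.21; edgeR adjusted p = 0.922). Its anagen levels were 247 and 271 CPM in KO, below the 297, 394 and 311 CPM of WT (log2 fold change -0.46 ± 0.23).

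Of the thioredoxin branch, Txnrd1 encodes cytosolic thioredoxin reductase and Srxn1 sulfiredoxin, which repairs overoxidised peroxiredoxins. Txnrd1 had 334.9 to 556 CPM in early telogen KO, against 321.5 to 407 CPM in early telogen WT (log2 fold change 0.11 ± 0.25; edgeR adjusted p = 0.909). Its 2 anagen KO libraries were 598 and 186 CPM, against 297 to 450 CPM in anagen WT, so KO held both the highest and the lowest anagen library. Srxn1 also overlapped, with 175 and 87.0 CPM in anagen KO and 117 to 223 CPM in anagen WT. In early telogen Srxn1 averaged 117 ± 33.2 CPM over 4 KO libraries and 118 ± 22.8 CPM over 3 WT libraries. Neither gene passed in any comparison that was tested.

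Hmox1 breaks down haem and is a classical NRF2 target also held down by BACH1 (chromosome 8, 75093621 to 75100589, plus strand). In anagen KO it measured 311 and 205 CPM, against 523, 632 and 671 CPM in anagen WT. Both KO libraries lay below all 3 WT libraries, with a log2 fold change of -1.33 ± 0.27, which was -1.68 to -1.06 with each library left out and -1.10 with the sex label in the model. In early telogen it had 234, 179, 211 and 171 CPM in KO, against 231, 186 and 76.0 CPM in WT, and the groups overlapped (log2 fold change 0.12 ± 0.32; edgeR adjusted p = 0.928). In early telogen against anagen, Hmox1 did not pass in KO cells (log2 fold change -0.37 ± 0.27; edgeR adjusted p = 0.344) and fell in WT cells (-1.80 ± 0.37; edgeR adjusted p = 0.0105). Its KO effect in early telogen minus that in anagen was 1.42 ± 0.48, also without a test.

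Nqo1, a quinone reductase much used as a readout of NRF2 activity, had 8.49 to 10.5 CPM in early telogen KO, against 8.34 to 11.6 CPM in early telogen WT (log2 fold change -0.25 ± 0.27; edgeR adjusted p = 0.786). In anagen it measured 16 and 26.5 CPM in KO, against 13.6, 17.5 and 18.4 CPM in WT, with overlap. In KO cells Nqo1 fell in early telogen (log2 fold change -1.17 ± 0.31; edgeR adjusted p = 0.0221), a call lost without anagen KO replicate 2 (edgeR adjusted p = 0.293). Nfe2l2 itself had 132, 213, 119 and 148 CPM in early telogen KO, against 213, 228 and 176 CPM in early telogen WT. KO replicate 2 reached the WT range and the others lay below it (log2 fold change -0.63 ± 0.20; edgeR adjusted p = 0.176). In anagen it had 216 and 325 CPM in KO, against 199.8, 152 and 295 CPM in WT. In KO cells it fell in early telogen (log2 fold change -0.85 ± 0.26; edgeR adjusted p = 0.0368). That call was lost without anagen KO replicate 2 (edgeR adjusted p = 0.311) or without early telogen KO replicate 1, 3 or 5 (0.106, 0.0739 and 0.0692).

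**Figure D3:**
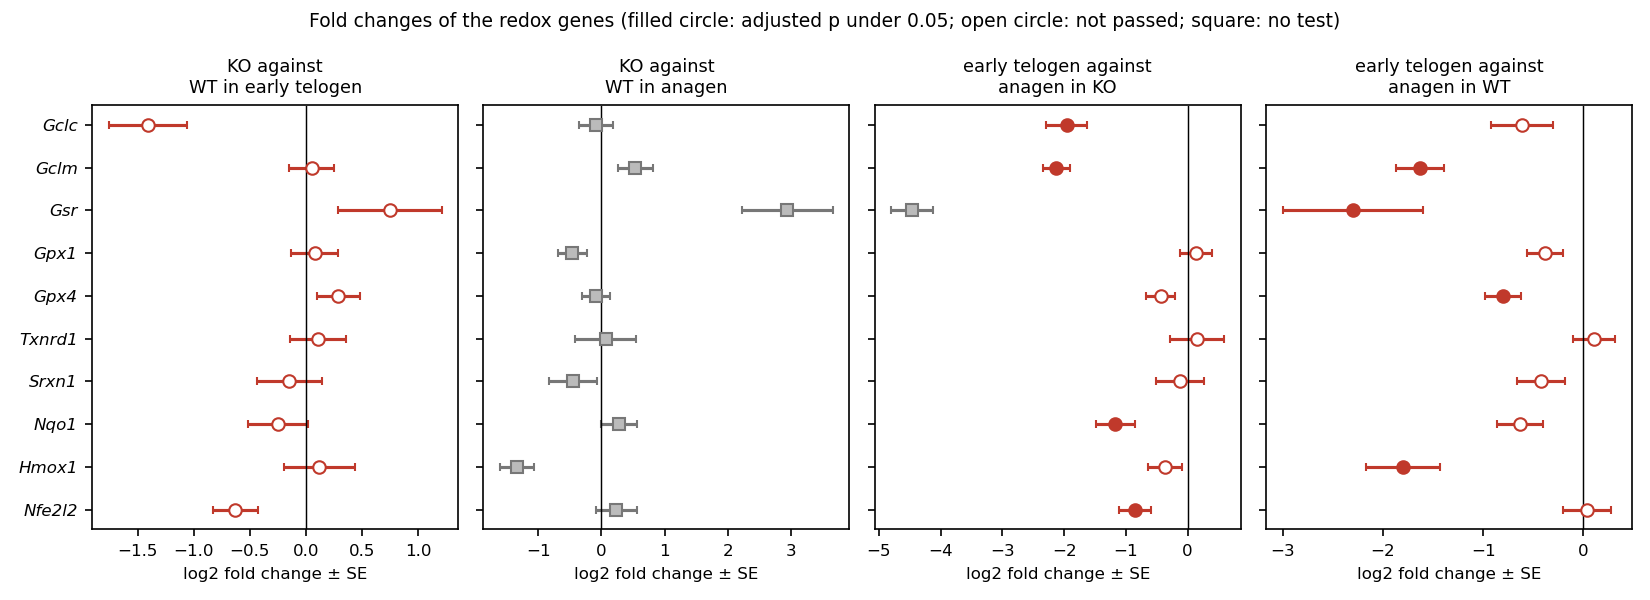
Log2 fold change with its SE for each of the 10 redox genes in 4 comparisons, KO against WT in early telogen and in anagen and early telogen against anagen in KO and in WT; filled circles passed (edgeR adjusted p under 0.05), open circles did not, and squares were not tested. No circle is filled in early telogen KO against WT, and every filled circle in the 2 stage panels lies below 0.

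Counted together, none of the 10 genes passed in KO against WT in early telogen, where 0.956% of 12030 genes did. At an unadjusted edgeR p under 0.05 there were 2 of the 10, beside 12% of all genes, and DESeq2 called 1, Gclc, beside 399 of 12873 genes with an adjusted p. In that comparison 2 of the 10 (Gsr and Gpx4) were higher in every KO library than in every WT library and 1 (Gclc) was lower, beside 9.75% and 3.37% of all genes tested (13.1% either way), and the median log2 fold change was 0.06 beside 0.03 for all genes. In anagen KO against WT no gene of 14409 passed in edgeR (0%), while 1456 had an unadjusted p under 0.05 and DESeq2 called 500. There 2 of the 10 (Gsr and Gclm) were higher without overlap and 2 (Gpx1 and Hmox1) lower, beside 18.5% and 11.2% of all genes (29.7% either way). The summed level of 7 epidermal differentiation markers was 621 and 1090 CPM in anagen KO, against 1522 to 2253 CPM in anagen WT. Of this list, Sbsn was 343 and 428 CPM in KO, against 827 to 1407 CPM in WT, and Krtdap was also lower without overlap. Krt1, Krt10, Lor and Flg overlapped. Ivl went the other way, at 98.7 and 163 CPM in KO, against 17.4 to 98 CPM in WT. The sum of 5 melanocyte markers was 25.2 and 28.8 CPM in KO, against 58.1 to 137 CPM in WT. Of these, Mitf and Tyr were lower without overlap, while Dct, Tyrp1 and Mlana overlapped. No marker in either list was at 0 in all libraries of an anagen group, and the part of these cells in the anagen values was not tested. Reads placed at more than 1 position, which were not counted for genes, made up 32.8% and 31.1% of the tallies and gene counts in anagen KO, against 20.1% to 25.8% in anagen WT. Their part in the anagen values was not tested either. The sum of 11 dissociation stress genes, such as Fos and Jun, was 10620 and 32550 CPM in anagen KO, against 15040 to 28140 CPM in anagen WT. Only Hspa1b of this list did not overlap, at 381 and 665 CPM in KO, against 753 to 1617 CPM in WT. The part of dissociation stress in the anagen values was not tested.

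Between stages the median of the 10 genes lay on the low side in early telogen, but 2 of the 10 lay above 0 in each genotype. These were Txnrd1 (log2 fold change 0.15) and Gpx1 (0.14) in KO, and Txnrd1 (0.11) and Nfe2l2 (0.04) in WT, none of which passed. In KO cells, where Gsr was not tested, 4 of the other 9 passed (Gclc, Gclm, Nqo1 and Nfe2l2), all lower, beside 22.2% of 12771 genes that passed, 12% lower and 10.2% higher. Without anagen KO replicate 2 the count was 2 of 9. In WT cells 4 of the 10 passed (Gsr, Gclm, Gpx4 and Hmox1), all lower, beside 29.5% of 12718 genes that passed, 15.9% lower and 13.5% higher. Leaving out Gsr, which stood out among the anagen values, 3 of 9 passed in WT. The anagen values of all 10 were known when the set was chosen, so the counts in both genotypes are not independent of that choice. The median log2 fold change was -0.44 in KO without Gsr and -0.62 in WT over all 10, beside -0.03 and -0.10 for all genes. In KO 5 of those 9, and in WT 6 of the 10, were lower in every early telogen library than in every anagen library, beside 23.5% of genes in KO and 29.9% in WT (44.9% and 47.9% without overlap either way). Gclm passed in both genotypes. Of the marker lists, the endothelial sum was 17.1 to 32.5 CPM in early telogen KO and 6.92 to 11.1 CPM in anagen KO, and the epidermal differentiation sum 1764 to 5957 CPM in early telogen KO and 621 to 1090 CPM in anagen KO, each without overlap. Against its epidermal list, Ivl was lower in early telogen KO, at 2.63 to 7.68 CPM, than in anagen KO, at 98.7 and 163 CPM. In WT the sum of 5 erythroid markers was 0.464 to 3.66 CPM in early telogen and 4.35 to 13.4 CPM in anagen. Of 4 melanocyte markers tested in WT, 3 fell and Mitf rose, with a median of -3.73, and Dct was 1.31 to 2.32 CPM in early telogen WT and 11.3 to 64.8 CPM in anagen WT. The part of these cells in the stage differences was not tested.

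Other genes of the pathway were read from 7 lists with 122 genes in all, and the 10 genes above are in none of them. In early telogen KO against WT, 110 of the 122 were tested, 0 rose and 2 fell, beside 0.499% and 0.457% of all genes. At an unadjusted edgeR p under 0.05 there were 10 of the 110, beside 12% of all genes, and DESeq2 called 3, beside 399 of 12873 genes. Both that fell were in the list of other NRF2 targets and haem and iron handling, in which 18 were tested. Osgin1, a growth inhibitor induced by oxidative stress, averaged 23.7 ± 3.85 CPM over the 4 KO libraries, against 52.4 ± 19.1 CPM over the 3 WT libraries. Its log2 fold change was -1.34 ± 0.26 (edgeR adjusted p = 0.0328). Ugdh, which makes UDP-glucuronate, averaged 195 ± 26.0 CPM in KO, against 357 ± 25.0 CPM in WT. Its log2 fold change was -1.03 ± 0.21 (edgeR adjusted p = 0.0367). Neither call was firm: of the 7 fits without 1 library, Osgin1 passed only in that without WT replicate 1 and Ugdh only in those without KO replicate 2 or 3, and without KO replicate 2 and WT replicate 3 the edgeR adjusted p was 0.178 for Osgin1 and 0.112 for Ugdh. KO replicate 2 had the highest summed level of 7 fibroblast and dermal papilla markers, 4980 CPM against 466 to 1502 CPM in the other KO libraries. WT replicate 3 had the lowest endothelial sum, 1.39 CPM against 21.9 and 23.8 CPM in the other WT libraries. Melanocyte markers differed by genotype here, but not all in 1 direction. Dct was 7.58 to 17.9 CPM in KO and 1.31 to 2.32 CPM in WT, and Tyrp1 3.29 to 11.8 CPM in KO and 0.489 to 2.04 CPM in WT. Tyr was also higher in KO, at 0.376 to 1.86 CPM, against 0 to 0.0893 CPM in WT. Mitf was lower, at 55.7 to 73.5 CPM in KO and 76.95 to 131 CPM in WT. The sum of the 5 markers overlapped, at 70.4 to 105 CPM in KO and 80.4 to 135.5 CPM in WT. Dct passed (edgeR adjusted p = 0.0274) and Tyrp1 did not (edgeR adjusted p = 0.124). The part of melanocytes in the early telogen values was not tested.

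None of the other 6 lists had a gene that passed there, and their medians lay between -0.03 and 0.27. The genes of smallest p were Ggt6 of glutathione breakdown (log2 fold change 1.0), the thioredoxin reductase Txnrd3 (-0.43), the endoplasmic reticulum peroxidase Gpx8 (0.85), the glutathione transferase Gsto1 (-0.51), the kinase gene Gsk3b (0.40) and the selenophosphate synthetase Sephs2 (-0.62), with edgeR adjusted p from 0.227 to 0.499. In anagen, 0 of 116 tested genes of the 7 lists passed in edgeR, 19 had an unadjusted p under 0.05, beside 10.1% of all genes, and DESeq2 called 5, beside 500 of 13938 genes. The smallest p belonged to Mafk, encoding a small MAF partner of NRF2, at 149 ± 21.6 CPM in KO (n = 2), against 306 ± 29.9 CPM in WT (n = 3; log2 fold change -1.13 ± 0.22; edgeR adjusted p = 0.156). Aldh3a1, an aldehyde dehydrogenase, followed with 3.02 ± 0.13 CPM in KO, against 11.8 ± 4.50 CPM in WT (log2 fold change -2.05 ± 0.40; edgeR adjusted p = 0.156). For the other lists, the log2 fold changes of the genes with smallest p were 1.59 for the glutathione-degrading Ggt1, -0.96 for Txnrd3, 1.93 for the peroxidase Gpx2, 0.72 for the glutathione transferase Gstm5 and 0.52 for the selenocysteine synthesis kinase Pstk, with edgeR adjusted p from 0.245 to 0.652.

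Early telogen against anagen set many of these genes apart in both genotypes. In KO cells 9 of 114 tested were higher and 30 lower, beside 10.2% and 12% of all genes, and in WT cells 12 of 113 were higher and 34 lower, beside 13.5% and 15.9% of all genes. The same shares of all genes apply to the counts of each list below. The median log2 fold change of the 7 lists together was -0.47 in KO and -0.49 in WT.

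Among glutathione S-transferases, which conjugate glutathione to reactive compounds, 7 of 20 were lower and 0 higher in KO, and 6 of 19 lower and 0 higher in WT, with a median of -1.02 in each genotype. Gstm5 averaged 38.2 ± 12.1 CPM in early telogen KO (n = 4) and 172 ± 7.17 CPM in anagen KO (n = 2) (log2 fold change -2.21 ± 0.24; edgeR adjusted p = 0.000199). In WT it averaged 26.8 ± 2.76 CPM in early telogen and 98.1 ± 22.1 CPM in anagen (n = 3 each) (log2 fold change -1.78 ± 0.20; edgeR adjusted p = 0.000779). Gstm1 fell by 1.23 in KO and by 1.27 in WT on the log2 scale, Mgst1 by 1.66 and Gsto1 by 1.08 in KO, and Gstm2 by 1.07 and Gstt3 by 1.61 in WT. The call of Gsto1 was lost without anagen KO replicate 2 (edgeR adjusted p = 0.156). Members of the Gstm cluster are near copies of each other, so their reads may have been split or left out.

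Of peroxidases, catalase and superoxide dismutases, 5 of 13 were lower in KO and 6 of 13 in WT, with none higher. Prdx2, a cytosolic peroxiredoxin, had 82.7 ± 35.7 CPM in early telogen KO (n = 4) and 191 ± 13.2 CPM in anagen KO (n = 2; log2 fold change -1.24 ± 0.30; edgeR adjusted p = 0.0137), and 59.8 ± 8.56 CPM in early telogen WT and 208 ± 50.2 CPM in anagen WT (n = 3 each; -1.72 ± 0.21; edgeR adjusted p = 0.00119). The mitochondrial Prdx3 fell by 1.32 in KO and by 0.93 in WT, calls lost in KO without anagen KO replicate 2 (edgeR adjusted p = 0.0711) and in WT without anagen replicate 1 or early telogen replicate 1 or 3 (0.0563 to 0.0702). Gpx8 fell by 1.40 and Sod1 by 0.73 in WT. Prdx4 (-1.06) and Sod2 (-0.72) passed in KO, but without an anagen KO library neither passed (edgeR adjusted p 0.0630 to 0.243). Of the 6 fits without 1 library, Prdx4 passed in 2 and Sod2 in 1.

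In the thioredoxin and glutaredoxin list 2 of 19 were higher and 5 lower in KO, and 1 of 19 higher and 8 lower in WT. The 2 sestrin genes named here, whose products respond to stress, moved in opposite directions. Sesn2 had 234 ± 78.2 CPM in early telogen KO (n = 4) and 63.4 ± 3.50 CPM in anagen KO (n = 2), and 257 ± 18.9 CPM in early telogen WT and 73.8 ± 7.96 CPM in anagen WT (n = 3 each), with log2 fold changes of 1.91 ± 0.36 in KO and 1.89 ± 0.15 in WT (edgeR adjusted p = 0.0047 and 0.000222). Sesn3 had 15.2 ± 2.62 CPM in early telogen KO and 81.7 ± 39.2 CPM in anagen KO, and 12.5 ± 1.45 CPM in early telogen WT and 42.9 ± 4.18 CPM in anagen WT, with log2 fold changes of -2.45 ± 0.28 in KO and -1.69 ± 0.19 in WT (edgeR adjusted p = 0.000255 and 0.000893). Glrx, the cytosolic glutaredoxin, fell by 2.85 in KO, Glrx3 fell by 0.88 in WT, and Txndc12 of the endoplasmic reticulum fell by 1.55 in KO and by 1.39 in WT. Mean levels of Glrx were 10.8 CPM in early telogen WT and 52.1 CPM in anagen WT. Those of Glrx3 were 59.4 CPM in early telogen KO and 99.1 CPM in anagen KO. Txndc12 did not pass in KO without anagen KO replicate 2 (edgeR adjusted p = 0.0833).

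Supply of glutathione and NADPH was mixed, with 3 of 21 higher and 8 lower in KO and 4 of 21 higher and 7 lower in WT. Oplah, which recycles oxoproline to glutamate, had 123 ± 24.0 CPM in early telogen KO (n = 4) and 499.8 ± 15.4 CPM in anagen KO (n = 2) (log2 fold change -2.04 ± 0.22; edgeR adjusted p = 0.00017). Mean Oplah in WT was 129.9 CPM in early telogen and 267 CPM in anagen. Idh1, a cytosolic source of NADPH, fell by 1.94 in WT, and averaged 24.0 CPM in early telogen KO and 67.8 CPM in anagen KO. The gamma-glutamyl transferases Ggt1 and Ggt5, which start the breakdown of extracellular glutathione, were nearly undetected in early telogen. Ggt1 had 3 counts over the early telogen KO libraries and 6694 over the anagen KO libraries, and the depth-corrected ratio of anagen to early telogen was 1170 (95% exact counting interval 400 to 5680). In WT it had 14 counts in early telogen, all of them in replicate 1, and 4226 in anagen, a ratio of 71.8 (42.7 to 131). Ggt5 had 10 counts in early telogen KO and 1854 in anagen KO, and 3 counts in early telogen WT and 2217 in anagen WT, with ratios of 97.3 (52.8 to 203) and 176 (60.1 to 853). These intervals cover counting error only.

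The NRF2 regulators were the list with a positive median between stages, 0.40 in KO and 0.30 in WT. Here 2 of 14 were higher and 2 lower in KO, beside 10.2% and 12% of all genes. In WT 4 of 14 were higher and 1 lower, beside 13.5% and 15.9%. Mafk averaged 583 ± 99.3 CPM in early telogen KO (n = 4) and 149 ± 21.6 CPM in anagen KO (n = 2) (log2 fold change 1.98 ± 0.31; edgeR adjusted p = 0.00159). In WT it averaged 694 ± 118 CPM in early telogen and 306 ± 29.9 CPM in anagen (n = 3 each) (log2 fold change 1.28 ± 0.20; edgeR adjusted p = 0.00261). In WT the small MAF gene Mafg rose by 0.80 and Nfe2l1, which encodes the NRF2 relative NRF1, by 0.75, a call lost without early telogen WT replicate 4 (edgeR adjusted p = 0.0547). Bach2, encoding a repressor, passed with 1.58 in KO and 0.89 in WT, calls that held in 2 of 6 fits without 1 library in each genotype. In KO the NRF2 relative Nfe2l3 fell by 1.81 and the ubiquitin ligase subunit gene Rbx1 by 0.84, and neither passed without anagen KO replicate 2 (edgeR adjusted p = 0.132 and 0.141), nor Rbx1 without early telogen KO replicate 1 (edgeR adjusted p = 0.0572).

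Among other NRF2 targets, 1 of 18 was higher and 3 lower in KO, and 1 of 18 higher and 5 lower in WT. In WT the carbonyl reductase Cbr1 fell by 0.99, the ferritin heavy chain gene Fth1 by 0.71 and the haem transporter gene Slc48a1 by 0.67, while Ugdh rose by 0.68. The calls of Slc48a1 and Ugdh were lost without early telogen WT replicate 3 and that of Fth1 without any 1 early telogen WT library (edgeR adjusted p 0.0501 to 0.0607). Osgin1 (-1.02), the iron exporter gene Slc40a1 (-1.35), Hmox2 (-0.87) and Aldh1a1 (2.94) were named in KO, and none of these 4 passed without anagen KO replicate 2 (edgeR adjusted p 0.254 to 0.303). Of the 6 fits without 1 library, Osgin1 passed in 5, Slc40a1 in 3, Aldh1a1 in 2 and Hmox2 in 1. Aldh1a1 was near the floor, with 12 counts over the anagen KO libraries and 50 over the early telogen KO libraries. For selenoprotein synthesis, on which Gpx1, Gpx4 and Txnrd1 depend, 1 of 9 was higher in KO, beside 10.2% of all genes. In WT 2 of 9 were higher and 1 lower, beside 13.5% and 15.9% of all genes. Lrp8, a receptor for selenoprotein P, rose by 2.50 in KO and 1.21 in WT. In KO the call was lost without either anagen KO library or early telogen KO replicate 1 (edgeR adjusted p = 0.0659, 0.218 and 0.0598). Sephs2 rose by 1.0 and Sephs1 fell by 0.83 in WT. The change in KO effect from stage to stage passed for 0 of 117 pathway genes in edgeR, beside 0.144% of 13193 genes (0.129% higher and 0.0152% lower). At an unadjusted p under 0.05 there were 10 of the 117, beside 6.37% of all genes, and DESeq2 called 1, beside 148 of 12306 genes.

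**Figure D4:**
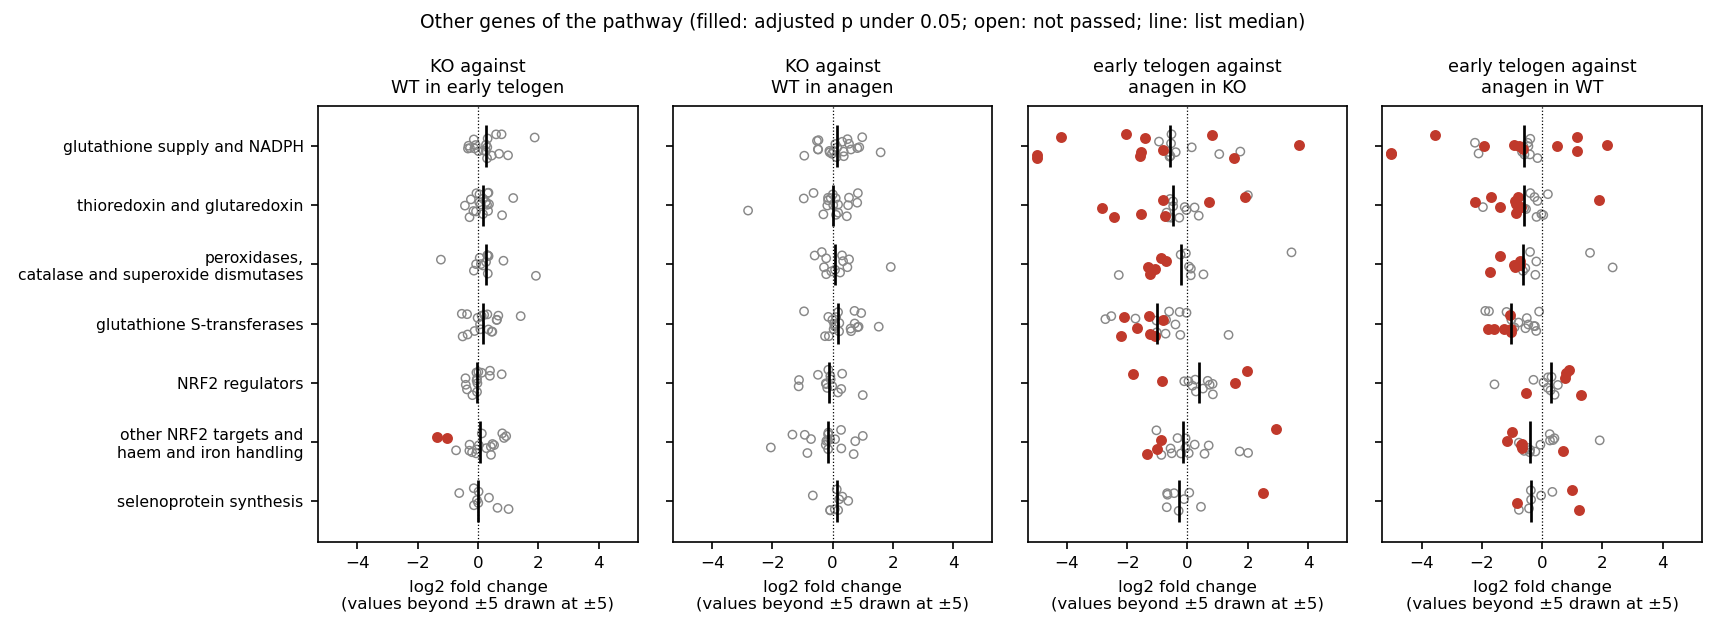
Log2 fold changes of the genes of the 7 pathway lists in 4 comparisons, 1 point per gene; filled points passed (edgeR adjusted p under 0.05), open points did not, the short vertical line is the list median, and values beyond 5 in either direction are drawn at 5. In early telogen KO against WT 2 points are filled and in anagen none, while between stages most filled points lie below 0 outside the NRF2 regulators and selenoprotein synthesis genes.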

How the data were processed

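The authors deposited unnormalised counts of reads for each gene, with a separate table for each stage. The authors aligned reads to mm10 with TopHat2 and counted them with HTSeq, per the submitters' processing notes, and versions and the strand option were not given in the sources used here. Per the labels' protocols, poly(A) RNA was captured on oligo(dT) and the kit was directional, so whether antisense reads entered a count is not known. The table for anagen lists 38803 genes plus 5 tally lines, which stayed out of library sizes. The early telogen table held 37958 genes, of which 27 names had been turned into dates, and 3 broken lines were left out. The tables shared 37931 names, and the 872 names of the anagen table alone held 3.14% to 3.41% of anagen counts. Library totals were 2662083 to 11821916 counts in early telogen and 29025553 to 54482469 counts in anagen, so lower genes such as Gsr are measured less precisely in early telogen.

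CPM were computed from counts over gene rows. Each comparison was fitted over all genes with edgeR 4.0.16 in R 4.3.3 (TMM, filterByExpr with minimum count 10 and minimum total 15, robust quasi-likelihood F-tests, Benjamini-Hochberg adjustment over all genes, threshold 0.05). Comparisons within a stage used that table, those between stages the shared names, and the difference between stages all 12 libraries. The SE of a log2 fold change is its size over the root of F. The fit was tested on simulated counts. Alternatives were RLE factors, DESeq2 1.42.0, no filter, the sex label, all 12 libraries in 1 fit, a replicate block, and libraries left out. Genes named were the 10 members, per comparison and list those that passed (up to 4 of smallest p, otherwise 1), Foxc1, and 5 genes by likeness to Gsr. A result that this rule names is not reported here. The members, lists and this rule were chosen with earlier results of these data known. Sex-linked transcripts fitted the label in all 12 libraries, and no 2 libraries were copies.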

Additional observations from a re-analysis of the deposited data

Results flagged for a closer look

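Data outside the gene counts showed 1 signal. Reads placed at more than 1 position were 32.8% of the counts and tallies in anagen KO replicate 1 and 31.1% in anagen KO replicate 2, both above the 20.1% to 25.8% of the 3 anagen WT libraries. No tally lines of this kind were used for early telogen. The test of outlying libraries, which applies to groups of 4 to 10 and so only to early telogen KO, picked none of the 10 redox genes.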

How the results depend on the processing

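The number of genes called depended on the setting. In anagen KO against WT the count of 0 became 500 with DESeq2, 306 without the filter, 1 with the sex label, 154 with all 12 libraries in 1 fit and 0 to 95 with 1 library left out (95 without WT replicate 1, 1 without WT replicate 2). In early telogen KO against WT the count of 115 became 399 with DESeq2, 338 without the filter, 39 with all 12 libraries, 47 without KO replicate 2 and WT replicate 3, and 19 to 131 with 1 library left out (47 and 24 without KO replicates 1 and 5, and 75, 19 and 44 without WT replicates 1, 3 and 4); 1 of the 10 passed with DESeq2 and 1 with the sex label, Gclc each time. Between stages, counts with 1 library left out were 1382 to 3640 in KO (2835 with all; 1614 and 1382 without anagen replicates 1 and 2) and 2312 to 3329 in WT (3746 with all; 2395 and 2312 without early telogen replicates 3 and 4), and 2 to 4 of the 9 redox genes tested passed in KO and 3 to 4 of 10 in WT. The difference between stages gave 19 calls, 148 with DESeq2, 409 without the filter, 6 with the sex label, 0 without early telogen KO replicate 2 and WT replicate 3, and 0 to 55 with 1 library left out (55 without anagen WT replicate 1, 0 without anagen KO replicate 2). The cause of these shifts was not tested.

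The libraries share 2 title days in anagen and 2 replicate numbers in early telogen, and nothing in the labels says that these mark pairs. Deviations from group means correlated at 0.51 and 0.42 for the days and 0.19 and 0.11 for the numbers. With a replicate block the calls were 253 in anagen and 11 in early telogen, and no redox gene passed in early telogen. With it Mafk and Aldh3a1 passed in anagen (edgeR adjusted p = 0.0372 and 0.0133), and Osgin1 and Ugdh did not pass in early telogen (0.363 and 0.139).

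No redox gene that passed changed sign. Those that changed sign are given as log2 fold changes. With the sex label, anagen gave 0.13 for Gpx4, -0.27 for Txnrd1 and 0.09 for Srxn1, the WT stage comparison -0.00 for Txnrd1 and Nfe2l2, and the KO stage comparison 0.09 for Srxn1. With the replicate block, anagen gave -0.25 for Txnrd1, and early telogen -0.03 for Gclm, -0.20 for Gpx1, -0.01 for Hmox1 and 0.19 for Srxn1. Without early telogen KO replicate 2 and WT replicate 3, early telogen gave -0.04 for Gpx1 and 0.06 for Srxn1, and the KO stage comparison 0.11 for Srxn1. Without the filter, Nfe2l2 was -0.02 between stages in WT. With 1 library left out, ranges that crossed 0 were, in anagen, -0.25 to 0.15 for Gclc, -0.29 to 0.09 for Gpx4, -0.08 to 0.53 for Nfe2l2, -0.13 to 0.58 for Nqo1 and -1.03 to 0.67 for Txnrd1. In early telogen they were -0.09 to 0.17 for Gclm, -0.05 to 0.18 for Gpx1, -0.23 to 0.38 for Hmox1, -0.28 to 0.08 for Srxn1 and -0.09 to 0.26 for Txnrd1. Between stages they were -0.01 to 0.23 for Gpx1, -0.60 to 0.44 for Srxn1 and -0.52 to 1.21 for Txnrd1 in KO, and -0.15 to 0.34 for Nfe2l2 and -0.06 to 0.33 for Txnrd1 in WT. For the difference they were -0.15 to 0.88 for Srxn1 and -0.60 to 1.12 for Txnrd1. The stage ratio of Gclc to Gclm in KO was 0.951 to 1.19. Groups of 2 to 4 libraries and under 110 Gsr counts per early telogen library limit what could be detected.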
